A study of Caenorhabditis elegans with 2 samples.

Results

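Genes of fasting and glyoxylate metabolism were read for peaks of RNA polymerase II, through its largest subunit AMA-1, in chromatin immunoprecipitation and sequencing (ChIP-seq) of whole young adult Caenorhabditis elegans. The 9 genes, out of 19973 protein-coding genes on the nuclear chromosomes, were icl-1, acs-2, adh-1, lipl-3, lipl-4, cpt-3, hacd-1, pck-1 and pck-2. They were chosen by name with earlier results of these data known, including the rank and position of their peaks, so the values below describe them and no test was made. The study has 1 group of 2 biological replicates: animals of the laboratory wild type N2, recorded as males and females pooled, for which the labels name no treatment. An antibody against AMA-1 was used, and a matched control library was not used here. The labels give the age as unknown and no feeding state, so no fed or fasted group could be compared. Whole animals were used, and a stronger peak in more cells cannot be told apart from polymerase in more copies per cell.

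Fasting worms draw on stored fat. Lysosomal and cytosolic lipases free fatty acids, acyl-CoA synthetases activate them, carnitine palmitoyltransferases carry them into mitochondria, and beta-oxidation turns them into acetyl-CoA. The glyoxylate cycle, which worms have and mammals lack, lets this acetyl-CoA build sugar, with phosphoenolpyruvate carboxykinase as the entry to gluconeogenesis. The nuclear receptor NHR-49 and the basic helix-loop-helix factors HLH-30 and MXL-3 are known regulators of this response in the worm.

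The authors' lists on build ce11 were read as follows. The optimal list, named after the irreproducible discovery rate (IDR), held 1103 peaks, which are the strongest 1103 of the pooled list, and the longer relaxed lists, which also hold background, held 30000 (pooled reads), 27847 (replicate 1) and 30000 (replicate 2). Rank 1 is the peak with the highest signal value, a score of the authors' peak caller that has its own scale in each list. A summit, the highest point of a peak, was counted for a gene when it lay from 1000 bp upstream of the annotated 5' end to 500 bp past the annotated 3' end. Of 16 marker genes for intestine, muscle, germline, hypodermis and neurons, 11 held a pooled summit and 2 (vit-6 and snb-1) an optimal one. The intestinal and germline markers held none in replicate 2, where 0 of 4 and 0 of 3 had a summit, against 2 of 4 and 3 of 3 in replicate 1. The hypodermal markers held summits at 2 of 3 in replicate 2 and 1 of 3 in replicate 1. The neuronal ones did at 3 of 3 in replicate 2 and 2 of 3 in replicate 1, and the muscle ones at 3 of 3 in both. The muscle summits were weak, with best ranks of 12447 to 20452 in replicate 1 and 7945 to 14751 in replicate 2. The intestinal summits of replicate 1, absent from replicate 2, were strong, with best ranks of 153 (vit-6) and 376 (vit-2). The germline ones ranked 1707 to 6404 there. Of all protein-coding genes, 49.5% held a summit in replicate 1 and 40.2% in replicate 2. How many reads lie behind the lists is unknown. These marker values belong beside the differences between replicates given below, and their part in them was not tested.

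Strong polymerase peaks lay at icl-1, acs-2, adh-1, pck-1 and pck-2, and almost none at the lipases, cpt-3 and hacd-1. Optimal summits lay at these 5 of the 9 genes, while 4.83% of all protein-coding genes had one. The same 5 held summits among the 1103 strongest peaks of replicate 1 (4.68% of all genes did) and among those of replicate 2 (4.71%). The pooled relaxed list added no further member, with 5 of 9 against 42.1% of all genes. Replicate 1's relaxed list held summits at 7 of 9 (49.5% of all genes) and replicate 2's at 5 of 9 (40.2%). Because the members were picked with these ranks known, the shares are given for scale only.

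**Figure D1:**
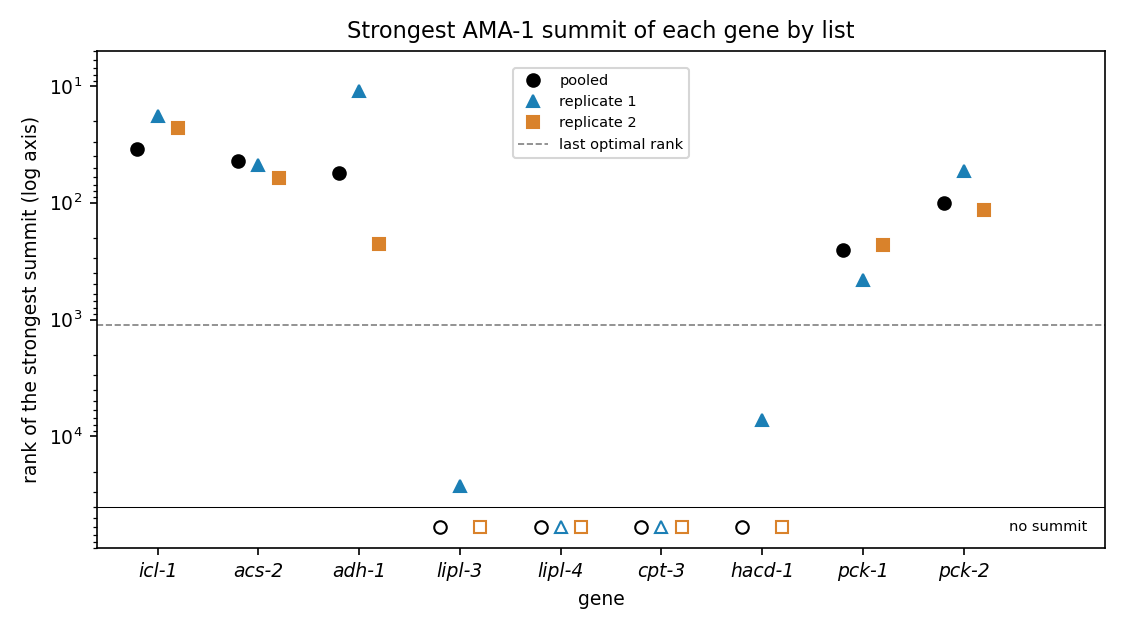
Rank of the strongest summit of each of the 9 genes (y axis, log scale, strongest at the top) in the pooled list (circles), replicate 1 (triangles) and replicate 2 (squares). Open symbols mark lists with no summit in the gene's window, and the dashed line is rank 1103, the last of the optimal list; 5 genes lie above it in all 3 lists, and adh-1 has the widest gap between replicates, rank 11 in replicate 1 and rank 226 in replicate 2.

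The strongest of the 9 in the pooled list and in replicate 2 was icl-1 (WBGene00001564), whose single protein carries both enzymes of the glyoxylate cycle, isocitrate lyase and malate synthase. The gene lies on chromosome V from 724332 to 728004 on the minus strand and spans 3673 bp. The 250 bases upstream of icl-1 overlap 1 annotated exon. Its 250 upstream bases, on the reference genome WBcel235 at chrV:728005-728254, are shown because they hold the letters of a TATA box and of the binding element of the FOXO factor DAF-16; they run 5' to 3' on the minus strand, and capitals mark GTAAACA at -184 and TATAAA at -32 bp from the annotated 5' end.
icl-1: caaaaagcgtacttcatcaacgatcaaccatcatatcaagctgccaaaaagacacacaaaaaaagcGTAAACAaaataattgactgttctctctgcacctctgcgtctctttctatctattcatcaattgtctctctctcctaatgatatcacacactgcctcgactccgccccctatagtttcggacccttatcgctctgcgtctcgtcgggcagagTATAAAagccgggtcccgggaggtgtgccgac

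In the pooled reads, polymerase peaks covered icl-1 from end to end. The gene held 6 optimal summits, and 8 of the 964 protein-coding genes with an optimal summit held 6 or more. The strongest lay in coding sequence at 289 bp from the 5' end, at position 727715. Its pooled rank was 35 and its signal value 149, while the median of the pooled list is 10.9. This position is also in the window of the non-coding gene C05E4.16. Other optimal summits lay inside the coding sequence at 1127 bp (rank 689), 2096 bp (rank 160) and 2942 bp (rank 147). The summit at 3840 bp, rank 48, lay 168 bp past the annotated 3' end. It falls in the upstream window of fbxb-72 as well, a gene with no other summit in the pooled list. A further summit at -980 bp, rank 171, lay inside a neighbouring chemoreceptor gene, srh-2.

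The peak interval over icl-1, 3635 bp from 724432 to 728066, was the widest in the optimal list and in the pooled list. The next widest optimal interval, at F26A3.4, measured 2670 bp. Replicate 2 also had its widest interval here, with 3566 bp, whereas replicate 1 split the gene into narrower peaks, the widest of them 777 bp. Optimal peaks together covered 100% of the icl-1 body, peaks of replicate 1 covered 51.8% and those of replicate 2 covered 99.9%. Full cover by optimal peaks was found at 10 of the 964 genes, and the longest of the other 9 was F26A3.4, with 1314 bp. In replicate 1 the strongest icl-1 summit ranked 18 and lay at 243 bp, near the 5' end. In replicate 2 it ranked 23 and lay at 3834 bp, past the 3' end, and the summit at 289 bp ranked 121. Both replicates thus placed icl-1 high, with the single strongest summit at opposite ends of the gene. Replicate 1 also had a summit of rank 67 at 3659 bp, close to the 3' end. Its summits at 2972 and 2125 bp ranked 32 and 33. When summits in the window of any other coding gene were left out, the best pooled rank of icl-1 was 147. That was behind acs-2 (44), adh-1 (56) and pck-2 (102). The icl-1 summits at 289 bp (rank 35) and 3840 bp (rank 48) then dropped out. They also fall in the upstream windows of srh-2 and fbxb-72, respectively.

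**Figure D2:**
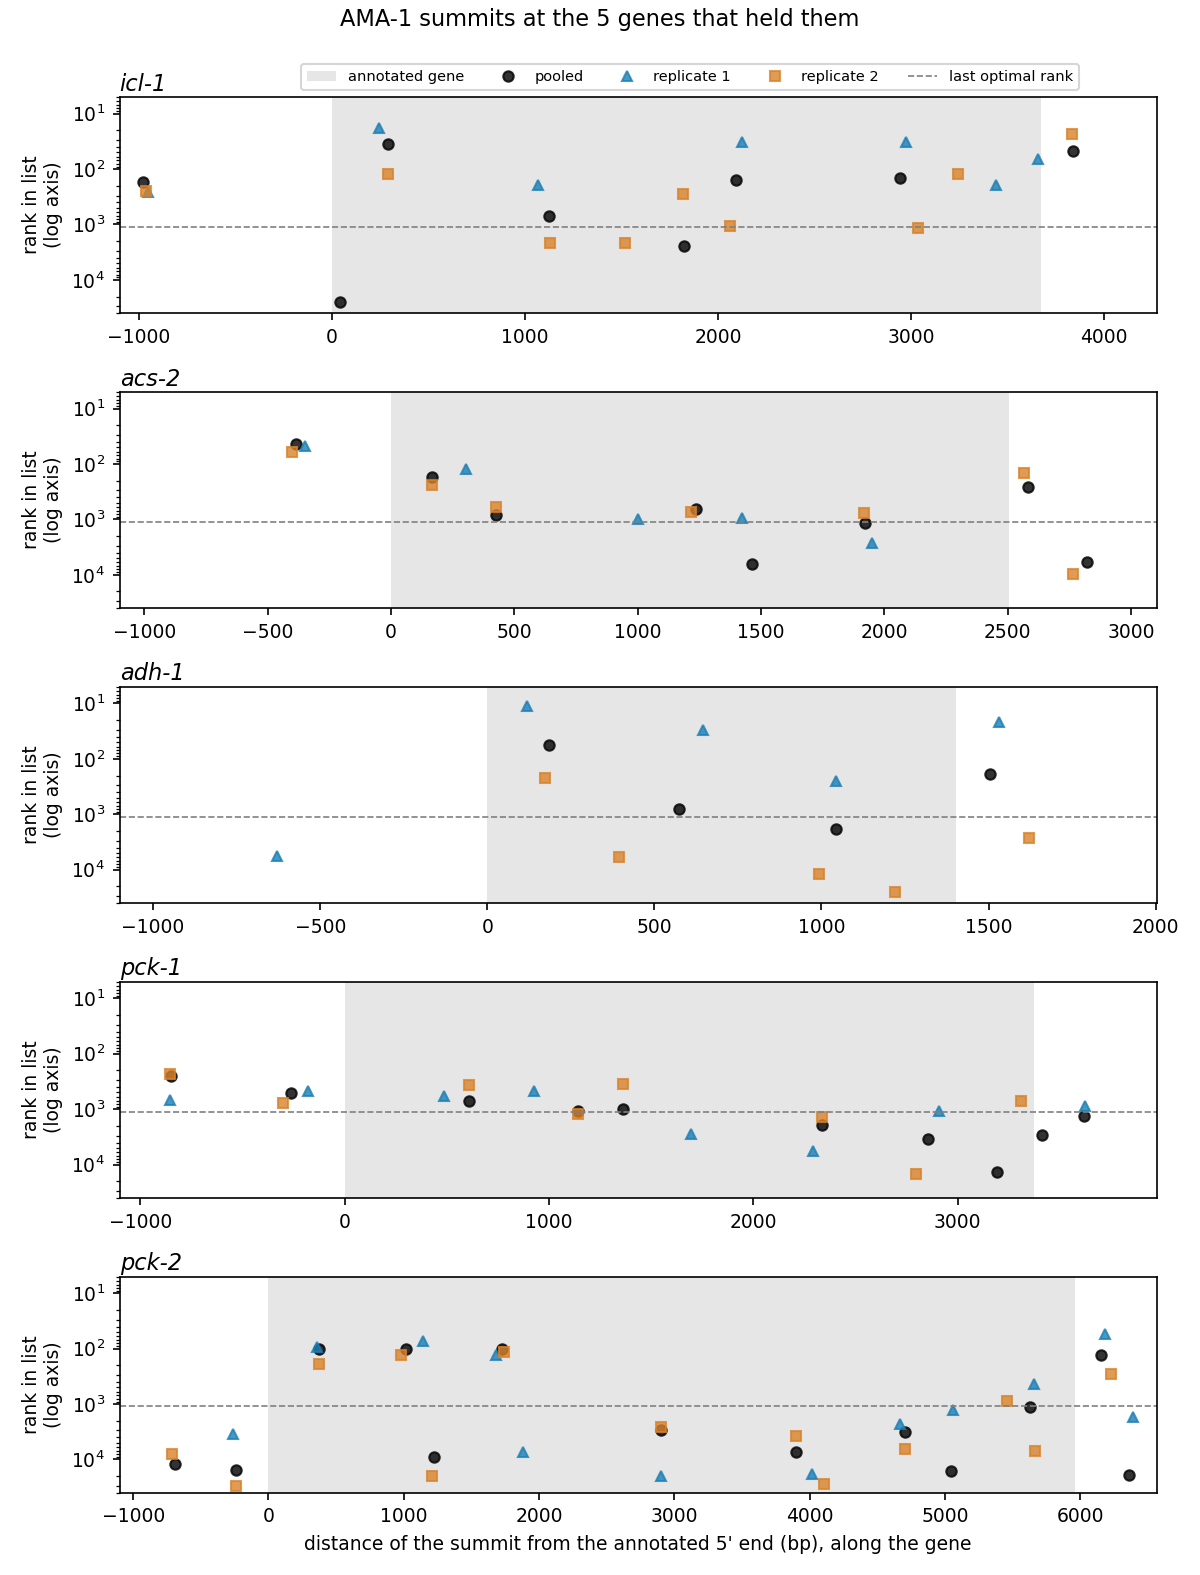
Summits at the 5 genes that held optimal peaks: distance from the annotated 5' end along the gene (x axis, bp) against rank within the list (y axis, log scale, strongest at the top). Grey marks the annotated gene, and symbols are summits of the pooled list, replicate 1 and replicate 2; summits of all 3 lists lie above the dashed line at rank 1103 in both the 5' and the 3' part of icl-1, and the pooled summits of pck-2 above it lie in the 5' part (375 to 1729 bp) and past the 3' end (6157 bp), with single replicate summits above it at 5461 bp (replicate 2) and 5659 bp (replicate 1).

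At acs-2 (WBGene00009221), a mitochondrial acyl-CoA synthetase that NHR-49 is known to switch on in fasting, the strongest peak lay upstream of the annotated 5' end. The gene is on chromosome V from 15567394 to 15569897 on the plus strand. Its strongest summit, pooled rank 44 with a signal value of 142, lay at -387 bp, and no other protein-coding gene has that position in its window, although the long non-coding RNA gene linc-108 does. Replicate 1 ranked this peak 48, at -349 bp, and replicate 2 ranked it 62, at -402 bp. The 200 bases around the pooled summit, chrV:15566907-15567106 on the plus strand, are shown because the highest point of the peak lies in them; the capitals mark the reverse complement of TGATAA, the core letters bound by GATA factors such as the intestinal ELT-2, at -328 bp.
acs-2 summit: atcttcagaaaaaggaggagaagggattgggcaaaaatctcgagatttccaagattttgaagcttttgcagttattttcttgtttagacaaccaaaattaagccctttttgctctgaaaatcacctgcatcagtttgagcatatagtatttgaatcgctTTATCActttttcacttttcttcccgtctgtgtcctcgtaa

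Inside acs-2 the optimal summits lay in coding sequence at 166 bp (rank 173), 426 bp (rank 851) and 1237 bp (rank 644). The fifth optimal summit, rank 258, lay 81 bp past the 3' end, at 2584 bp, and also upstream of lsm-5, a gene with no optimal or pooled summit outside the acs-2 window. Replicate 2 had a summit of rank 145 there, at 2565 bp. Replicate 1 had none within the 500 bp past the 3' end of acs-2. Its nearest summit, of rank 1331, lay 432 bp from the pooled one, just beyond that window and inside lsm-5. Optimal peaks covered 37.1% of the acs-2 body. With gene bodies alone the best pooled rank was 173 rather than 44, because the upstream peak then dropped out.

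Of the 9 genes, those of fatty acid transport, the beta-oxidation step and the lipases (cpt-3, hacd-1, lipl-3 and lipl-4) held no optimal or pooled summit. At cpt-3 (WBGene00021703, chromosome III, 2082819 to 2088314), a carnitine palmitoyltransferase, no list held a summit, and the nearest pooled one lay 2758 bp downstream with rank 5588. The same held for lipl-4 (WBGene00019376, chromosome V, 6550171 to 6552186), a lysosomal lipase linked to long life in worms without a germline; its nearest pooled summit lay 3169 bp upstream, with rank 18538. At hacd-1 (WBGene00019978, chromosome V, 1460369 to 1461613), a hydroxyacyl-CoA dehydrogenase, replicate 1 alone had a summit, of rank 7228 at -98 bp. At lipl-3 (WBGene00020016, chromosome V, 521595 to 524218), a lysosomal lipase that HLH-30 is known to induce in fasting, replicate 1 alone had one, of rank 26664 among 27847 at 1865 bp, also in the window of srw-107. The nearest pooled summit to lipl-3 lay 38515 bp away. A gene without a summit in lists of this length may still carry polymerase below what they hold.

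The promoters of lipl-3 and cpt-3 are shown because they carry the TATA box letters at -33 and -32 bp, close to their place at icl-1 and adh-1, without a peak of the optimal list. Each run gives the 250 bases upstream of the annotated 5' end, 5' to 3' along the gene, at chrV:524219-524468 (minus strand) and chrIII:2082569-2082818 (plus strand). Capitals mark on either strand the letters TATAAA, the GATA core TGATAA given above, and the DAF-16 associated element, CTTATCA. The element contains the GATA core on its opposite strand, so the matches overlap.
lipl-3: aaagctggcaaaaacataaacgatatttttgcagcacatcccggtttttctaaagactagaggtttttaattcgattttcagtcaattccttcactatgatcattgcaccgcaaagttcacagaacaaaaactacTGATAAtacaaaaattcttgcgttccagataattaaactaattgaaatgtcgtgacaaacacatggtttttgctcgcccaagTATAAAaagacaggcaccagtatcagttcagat
cpt-3: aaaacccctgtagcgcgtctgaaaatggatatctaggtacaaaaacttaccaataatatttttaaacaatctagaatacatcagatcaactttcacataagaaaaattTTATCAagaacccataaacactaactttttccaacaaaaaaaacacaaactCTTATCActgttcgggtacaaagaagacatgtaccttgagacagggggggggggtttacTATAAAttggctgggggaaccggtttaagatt

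The letters TATAAA, read along the gene, began 40 to 25 bases before the annotated start at 4 of the 9 genes (icl-1, adh-1, lipl-3 and cpt-3), a window chosen after the sequences were seen; 812 of 19973 protein-coding promoters (4.07%) had the same. Of these 4 genes, 2 held optimal summits and 2 held none in the pooled list. Over the whole 300 bases from 250 before to 50 after the start, on both strands, TATAAA was found at 5 of 9 (37.9% of all promoters). TGATAA was found at 6 of 9 (30.2%), CTTATCA at 2 of 9 (9.19%), GTAAACA at 1 of 9 (4.77%) and CACGTG, the E-box of HLH-30 and MXL-3, at 1 of 9 (5.82%). In the 300 bases around the strongest pooled summit of the 5 genes, CACGTG lay at 2 (icl-1 and pck-2), against 10.2% of the 1103 optimal summits. TGATAA and TATAAA each lay at 1 (acs-2), against 25.4% and 23.8%, and CTTATCA (6.89%) and GTAAACA (4.17%) at none. A match says only that the letters are there.

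The one E-box promoter was that of adh-1 (WBGene00010790), an alcohol dehydrogenase on chromosome V from 11888248 to 11889650, plus strand. Its 250 upstream bases, chrV:11887998-11888247, held CACGTG at -206, -103 and -39 bp, and 6 of 19973 promoters (0.0300%) held 3 or more copies in that stretch, a count made after the sequence was seen. Capitals mark these, the overlapping TGATAA and CTTATCA match at -180 bp and TATAAA at -30 bp.
adh-1: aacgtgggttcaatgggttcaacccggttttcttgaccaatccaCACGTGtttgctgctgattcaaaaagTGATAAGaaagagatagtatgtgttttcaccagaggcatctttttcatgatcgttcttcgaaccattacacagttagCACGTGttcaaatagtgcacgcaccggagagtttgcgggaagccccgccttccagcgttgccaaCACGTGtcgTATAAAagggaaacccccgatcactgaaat

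Polymerase at adh-1 was spread over the gene in replicate 1 and weaker in replicate 2. The strongest pooled summit, rank 56 with a signal value of 131, lay in coding sequence at 186 bp. Optimal summits followed at 573 bp (rank 817) and 1504 bp (rank 184), the last of them 102 bp past the 3' end and inside the 3' part of sodh-2, a neighbour on the opposite strand. Outside the adh-1 window, sodh-2 held 1 pooled summit, of rank 16815. In replicate 1 the summit nearest the 5' end ranked 11, and those at 646 and 1531 bp ranked 30 and 22. In replicate 2 the summit at 172 bp ranked 226, and the summits nearest the other optimal positions ranked 5936 and 2663. Optimal peaks covered 79.5% of the gene body. Peaks of replicate 1 covered 80.8% and those of replicate 2 covered 56.2%. The replicate 2 share includes weak peaks of ranks 11732 and 24780, each 340 bp wide, the median width of that list. Its peak of rank 226 was 93 bp wide.

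**Figure D3:**
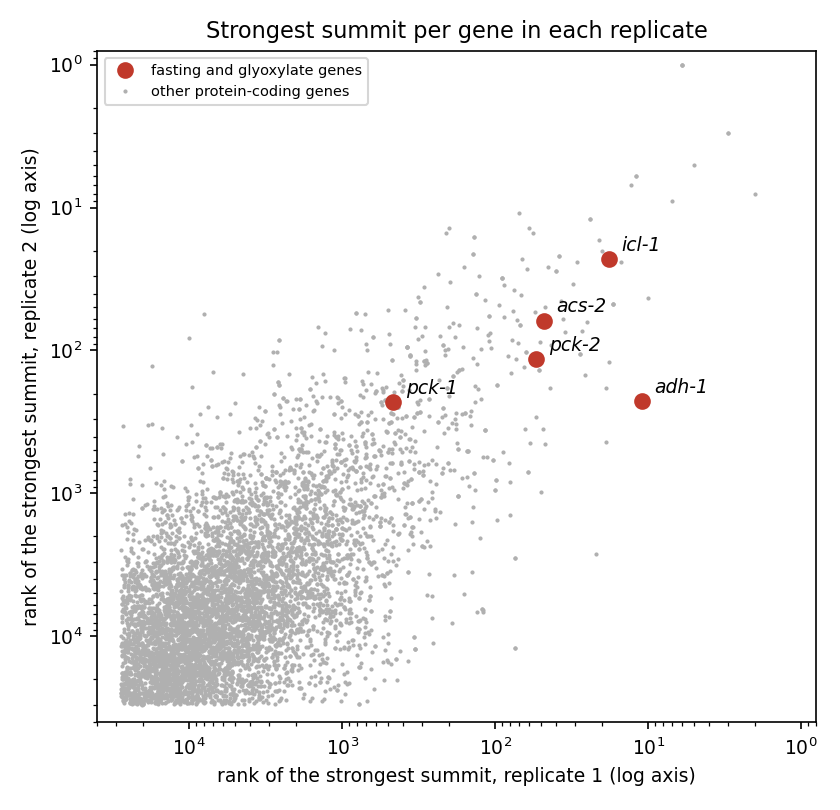
Rank of the strongest summit of each protein-coding gene in replicate 1 (x axis) and replicate 2 (y axis), both log scales with the strongest at the right and top, for genes with a summit in both lists. Red points are the 5 genes of fasting and glyoxylate metabolism and grey points all others; icl-1, acs-2 and pck-2 lie in the upper right corner in both, adh-1 is further right than up, and pck-1 is the lowest in replicate 1.

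The genes for phosphoenolpyruvate carboxykinase, pck-1 and pck-2, both held optimal summits inside the gene, at 609 to 1362 bp in pck-1 and at 375 to 1729 bp in pck-2. At pck-1 (WBGene00021043, chromosome III, 62888 to 66260, minus strand) the strongest summit lay upstream of the annotated 5' end, at -850 bp. It had pooled rank 252 and a signal value of 73.8. It ranked 685 in replicate 1 and 229 in replicate 2, at -854 bp in both. The strongest pck-1 summit of replicate 1 was another, of rank 463 at -180 bp. Another optimal summit lay at -260 bp (rank 506). The remaining optimal summits lay in an intron at 609 bp (rank 720) and in coding sequence at 1362 bp (rank 983) and 1141 bp (rank 1096), the last near the end of the optimal list at rank 1103. Its signal value was 40.5, and just outside the list lay a pck-2 summit of rank 1154 with 39.7 and an acs-2 summit of rank 1155 with 39.6. No other gene has any of these positions in its window. With the window cut to 500 bp upstream the best rank of pck-1 was 506, and with the body alone 720.

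The summit at -260 bp lay in a stretch of copies of TTAGGC, the repeat unit of worm telomeres. The 200 bases around it, chrIII:66420-66619 on the minus strand, are shown for that reason, with the copies, here as the reverse complement GCCTAA, in capitals. They hold 8 copies, and 3 of the 1103 optimal summits (0.272%) have 8 or more within such a window. The window around the summit at -850 bp holds none. The strongest replicate 1 summit of pck-1, at -180 bp, also lies in the stretch shown; without it the best replicate 1 rank is 476, at 927 bp. Whether reads could be placed uniquely in the repeat was not tested.
pck-1 summit: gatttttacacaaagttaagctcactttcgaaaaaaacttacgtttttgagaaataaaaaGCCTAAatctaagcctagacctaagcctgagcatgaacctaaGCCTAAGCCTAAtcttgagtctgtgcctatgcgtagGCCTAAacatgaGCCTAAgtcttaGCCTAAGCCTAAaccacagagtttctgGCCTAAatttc

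**Figure D4:**
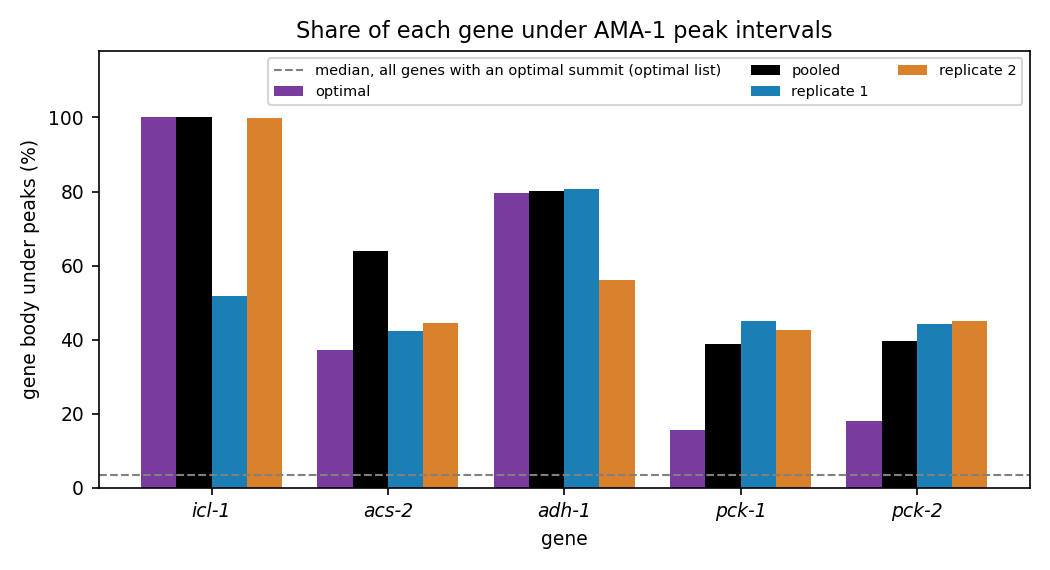
Percent of each annotated gene body under peak intervals (y axis, from 0) for the 5 genes with optimal summits, in the optimal list, the pooled list, replicate 1 and replicate 2 (bars, left to right). The dashed line is the median of the 964 genes with an optimal summit, 3.38%. It counts optimal peaks only and so compares with the optimal bars alone. The icl-1 gene stands at 100% in the optimal list, with 51.8% in replicate 1 and 99.9% in replicate 2.

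At pck-2 (WBGene00011232, chromosome I, 7866136 to 7872100, plus strand), the strongest summits lay in the 5' part of the gene and past its 3' end. Those at 375 bp in coding sequence, 1013 bp in an intron and 1729 bp in an intron had pooled ranks 102, 101 and 100, with signal values of 104, 104 and 105. The 375 bp one is -45 bp from the start of another annotated transcript. The 1729 bp one lies within R11A5.6, a small gene on the opposite strand inside the intron. The fourth optimal summit, rank 128, lay 193 bp past the 3' end, within the body of suro-1. Between 1729 and 5630 bp, the pooled summits ranked 3000 or weaker. Replicate 1 placed its strongest pck-2 summit past the 3' end (rank 54, at 6186 bp), and replicate 2 in the intron (rank 115, at 1741 bp). Optimal peaks covered 18.0% of the pck-2 body and 15.5% of the pck-1 body. The median over all genes with an optimal summit was 3.38%, with quartiles of 0 and 12.7%.

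All 5 genes shared a layout of many summits with a peak close behind the 3' end. Each had 3 or more optimal summits, as did 106 of the 964 protein-coding genes with any optimal summit (0.531% of all 19973). Of the 964, 23 held 5 or more, icl-1, acs-2 and pck-1 among them. Several optimal summits were also held by other genes of these pathways, such as mxl-3 (5), fbp-1, aak-2 and idh-1 (4 each) and pyc-1 (3). Within 300 bp past the 3' end, optimal summits lay at 4 of the 9 genes (1.61% of all genes) and pooled summits at 5 of 9 (17%). Among the 964 genes with any optimal summit, 33.4% had an optimal one and 64.5% a pooled one there. At pck-1 this summit was weaker, with pooled rank 1310, at 246 bp past the end. At the other 4 genes the same position lay in the window of a neighbouring gene. It lies upstream of the start of fbxb-72 and lsm-5, while sodh-2 and suro-1 run the opposite way and have it in their own 3' part. In all, 12 of the 23 optimal summits lay in coding sequence, 3 in introns, 4 upstream and 4 past 3' ends. The same split was not made for all optimal summits, so these counts only describe the members.

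The pooled list holds the reads of both replicates, and its optimal summits lay closer to those of replicate 2. The 23 optimal summits had a replicate 2 summit at a median of 14.0 bp (0 to 178) and a replicate 1 summit at a median of 67.0 bp (4 to 432). Over all 1103 optimal summits the medians were 6 bp to replicate 2 and 33.0 bp to replicate 1. Within 150 bp, 22 of 23 (95.7%) had a replicate 2 summit, against 97.6% of all 1103 optimal summits. For replicate 1 it was 18 of 23 (78.3%), against 89.2%. By best rank the replicates ordered the genes differently: adh-1 (11), icl-1 (18), acs-2 (48), pck-2 (54) and pck-1 (463) in replicate 1, and icl-1 (23), acs-2 (62), pck-2 (115), adh-1 (226) and pck-1 (229) in replicate 2. With 1 value a replicate, neighbours in these orders cannot be told apart beyond their spread.

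Genes whose best ranks in both replicates were most like those of icl-1 were lgg-1 (20 and 20), F26A3.4 (15 and 24) and drap-1 (21 and 17), out of 6827 genes with a summit in both, by distance on the log10 rank scale over 2 replicates (0.0760, 0.0813 and 0.147). The strongest summit of F26A3.4 is shared with ego-1.

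Other genes of the same pathways were read from lists chosen with earlier results known; 92 of 93 named symbols were found. Of the 92, 23 (25%) held an optimal summit and 73 (79.3%) a pooled one, beside the 4.83% and 42.1% of all protein-coding genes. In the tricarboxylic acid cycle 6 of 22 genes held optimal summits, with mdh-1, malate dehydrogenase, at pooled rank 26, cts-1, citrate synthase, at 53 and idh-1, isocitrate dehydrogenase, at 122. These 3 summits lay past the annotated 3' end and in the window of another gene. Of all these pathway genes, mdh-1 alone ranked above icl-1 in the pooled list. In replicate 1 mdh-1 ranked 139 and icl-1 18, and in replicate 2 they ranked 21 and 23. In gluconeogenesis and pyruvate use 4 of 8 did, led by fbp-1, fructose-1,6-bisphosphatase, with 4 optimal summits and best rank 431, then pyc-1, pyruvate carboxylase, at 514 and tpi-1, triosephosphate isomerase, at 759 in the window of cyn-16 too. Alcohol and aldehyde dehydrogenases held them in 3 of 7, namely alh-1 (rank 194), alh-8 (690) and alh-4 (1054), each shared with a neighbour.

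Among 30 other genes of fatty acid activation and beta-oxidation 4 held optimal summits, with acdh-1, a short-chain acyl-CoA dehydrogenase, at rank 424, acs-11, an acyl-CoA synthetase, at 567 in the window of eas-1 too, and ech-6, an enoyl-CoA hydratase, at 750. Of 9 other lipolysis genes, only atgl-1, the adipose triglyceride lipase, had one, at rank 1088. Among 16 regulators 5 did. The strongest was mxl-3, a basic helix-loop-helix repressor of lipase genes in fed worms, with 5 optimal summits and best rank 63, past its annotated 3' end at 1248 bp (77 in replicate 1 and 53 in replicate 2). Of the other regulators, hlh-30 had 1, at rank 624, and aak-2, a subunit of the energy sensor AMPK, had 4, the best at rank 467. The gene of NHR-49 had no optimal summit; its best pooled rank was 1395.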

How the data were processed

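AMA-1 ChIP-seq peak lists from 2 biological replicates of whole young adult N2 worms were used; replicate numbers come from the labels. Per the README deposited with each sample, relaxed lists were made from alignments and a control alignment, per replicate and on pooled reads, and the optimal IDR list from these. Which aligner and caller made them is not given in the sources used here. The deposited signal value is a score on its own scale in each list and was used for ranks and, within a list, to describe single peaks. The deposited q-value column, −log10 (q-value), is at its highest, 4.05, for all optimal peaks, and separates none of those. Summits are interval start plus the deposited offset, printed 1-based.

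Only lists on build ce11 were placed on genes, with Ensembl release 115 (WBcel235); no peak passed a chromosome end. The optimal entries are the 1103 strongest pooled ones, 45 of them sharing an interval with another entry. Annotated 5' ends of trans-spliced genes are often splice sites. Whether those of acs-2 and pck-1, whose strongest summits lay upstream, are such sites was not tested. Sequences come from the RefSeq copy of WBcel235.

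The members, windows and gene lists were chosen with earlier results of these data known, so no test was made. Named genes were the 9 members, genes sharing their summits, the 3 strongest genes of each pathway list, any above icl-1, and the 3 nearest icl-1 by replicate ranks; the markers, F26A3.4 as a width comparison, aak-2 and nhr-49 in their list were given beside them. Depth per sample is unknown, so no interval is given. Window counting was checked on simulated data. Software was Python 3.11.15, numpy 2.4.6, pandas 2.3.3 and matplotlib 3.10.9.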

Additional observations from a re-analysis of the deposited data

How the results depend on the processing

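The counts of genes with an optimal summit and with a pooled summit stayed at 5 under the 3 other windows tried, with peak overlap in place of summits and with only summits in no other coding window. The optimal count was also 5 over the strongest 551 and 2206 pooled peaks, and the pooled count over peaks at the highest q-value. The 5 genes were icl-1, acs-2, adh-1, pck-1 and pck-2 each time. Without replicate 1 they were 5 and 5, and without replicate 2 they were 5 and 7. The median best rank of the genes with a summit was 56. It was 100 with gene bodies only and 102 with only summits in no other coding window. Without replicate 1 it was 115, also over 5 genes. Without replicate 2 it was 54, but over 7 genes, so that value covers another set. Gene bodies alone leave out the upstream peaks of acs-2 and pck-1. The unshared setting leaves out summits shared with srh-2 and fbxb-72 (icl-1) and R11A5.6 (pck-2). Of 35 values for single genes, 9 moved beyond the spread between replicates, and ranks from single replicates belong to other lists. That spread comes from the same 2 replicates, so it cannot judge the settings that leave a replicate out. For adh-1, ranks of 226 without replicate 1 and 11 without replicate 2, against 56, counted as within its wide spread. Without replicate 2, lipl-3 and hacd-1 gained a summit. No paired analysis was possible because there is 1 group. Depth, and thus what the lists could hold, is unknown, and the ce10 lists were not used here.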
